A study of Mus musculus with 40 samples.

Results

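Lipoprotein lipase, the product of Lpl, was followed across 14 groups of mouse cells and tissues, each sample hybridized as radioactive cDNA to a nylon filter of its own, 40 in all. Its members are the spots whose only platform gene symbol is Lpl, and there is 1 such spot among 5760, of which 3420 carry a single symbol. The Lpl values therefore rest on 1 cDNA clone (gene ID 16956), and no source used here says which part of the transcript the clone covers. The cultured groups were 4 white fat preadipocyte lines kept subconfluent (3T3-L1 with 2 samples, 3T3-F442A, Ob1774 and Hgfu with 1 each), 3T3-F442A adipocytes after 7 days at confluence with rosiglitazone (3), C2C12 myoblasts in proliferation (3) and C2C12 myotubes after 7 days in HS medium (2). The others were proliferating C3H-10T1/2, a mesenchymal stem cell line (3), Raw 264 (3) and J774 (2), which are lines of macrophages, and embryonic stem (ES) cells of the line ZIN40 with the cytokine LIF (3) or without it (3). The primary groups were adipocytes freed by collagenase from inguinal white fat (3), adherent stroma-vascular cells of the same depot 24 h after plating (3), peritoneal macrophages 24 h after plating (3), tibialis muscle (2) and liver (2). The sources used here do not state strain, sex or age of the mice or whether animals were pooled, and each cultured group is 1 line except the preadipocytes. Apart from those lines, no label says that a group's samples are separate cultures or animals. The p-values then measure only how far these samples spread, which may be technical.

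Lipoprotein lipase is a secreted enzyme that is carried to the capillary wall, where it splits the triglycerides of chylomicrons and very low density lipoproteins and so releases fatty acids for the tissue around it. Fat cells, muscle fibres and macrophages make it, apolipoprotein C-II activates it, and proteins such as apolipoprotein C-I and the angiopoietin-like proteins hold it back. Its gene is a known target of PPARγ, the nuclear receptor that rosiglitazone activates, and its rise is a classical sign of fat cell differentiation in culture.

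Every Lpl level below is log2 of the quantile normalized intensity plus an offset of 36370, and every difference is a log2 fold change on that scale, which compresses folds. The lowest intensity on 37 of the 40 arrays was at least 7675, and median intensities ran from 941 to 132228. The 3 arrays of ES cells without LIF stood apart before any comparison: their 99th percentile lay 60.0 to 391 times above the median, against 3.87 to 17.5 times on the other 37, so Lpl values of that group depend on the scaling. With those 3 arrays left out of the normalization and the fit, all 5 called Lpl comparisons given below kept their call, with 1.28 in place of 1.40 for 3T3-F442A adipocytes over preadipocyte lines, and -0.60 (adjusted p = 0.04999) in place of -0.69 for tissue over 3T3-F442A adipocytes. The labelled cell types were checked by marker lists. All 5 liver markers had their highest group mean in liver and 7 of 8 skeletal muscle markers in tibialis muscle. The 2 liver samples were unlike, with liver marker means of 18.98 in replicate 1 and 17.44 in replicate 2. The array of liver replicate 2 had the lowest median of the 37 (18870.5). Of 5 macrophage markers 3 were highest in peritoneal macrophages, of 3 adipocyte markers 2 (Retn and Pnpla2) were highest in tissue adipocytes, and none of 9 ES cell markers was measured. Because these are bulk samples, fewer cells of a type and less RNA per cell cannot be told apart.

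The Lpl spot was brightest in cultured adipocytes. In 3T3-F442A adipocytes the Lpl level was 18.48, 18.02 and 18.63, brighter than 94.0% to 95.1% of the spots on its array. In adipocytes from inguinal fat it was 17.28, 17.87 and 17.92. In peritoneal macrophages it was 17.66, 17.42 and 17.71. All 3 cultured adipocyte samples lay above all other samples of the series, whereas the tissue adipocytes and the macrophages overlapped. Tissue adipocyte replicate 1 lay well below the other two and inside the range of the stroma-vascular cells.

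The muscle, liver and precursor samples lay lower and close together. The level was 17.27 and 17.34 in tibialis muscle, 17.05 and 17.21 in C2C12 myotubes, and 17.38, 17.15 and 16.95 in proliferating C2C12 myoblasts. Liver, which in adult animals makes little of the enzyme, had 17.17 and 16.97. Even there the Lpl spot was brighter than 90.5% and 87.4% of the spots on its array. Stroma-vascular cells had 17.29, 17.11 and 17.41. The muscle tissue, the muscle line and the stroma-vascular cells covered much the same range. The preadipocyte lines had 17.05 and 17.08 (3T3-L1), 16.83 (3T3-F442A), 16.72 (Ob1774) and 17.29 (Hgfu), with Hgfu the highest and Ob1774 the lowest. C3H-10T1/2 had 16.69, 17.23 and 16.92. Those mesenchymal and preadipocyte samples, the lowest groups of the series by mean, still had Lpl brighter than 75.7% to 91.5% of spots.

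The macrophage lines and the ES cells were spread over the order, with group means between rank 4 and rank 12. Raw 264 had 17.15, 16.99 and 17.44 and J774 had 17.11 and 17.01. ES cells had 17.15, 17.60 and 17.23 with LIF and 16.89, 17.07 and 16.99 without it. In Raw 264, J774 and both ES groups at least 1 sample lay within the range of the preadipocyte lines.

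**Figure D1:**
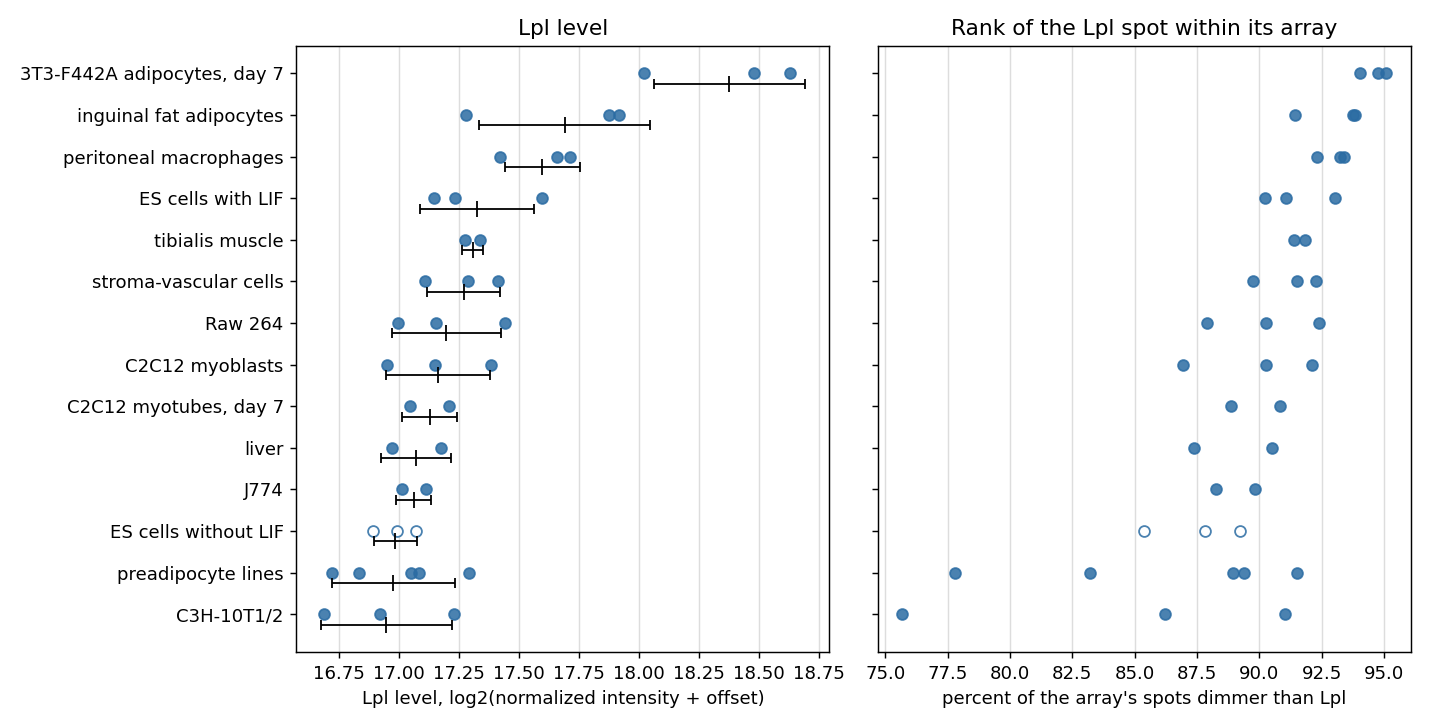
Lpl in each of the 40 samples, by group in the order of the group means: the left panel plots log2(normalized intensity + offset) and the right panel the percent of the array's spots that were dimmer than Lpl. The 3 samples of 3T3-F442A adipocytes sit between 18.02 and 18.63, above every other sample.

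By group mean ± SD the order ran from 3T3-F442A adipocytes (18.38 ± 0.32, n = 3) through tissue adipocytes (17.69 ± 0.35, n = 3) and peritoneal macrophages (17.60 ± 0.16, n = 3) to ES cells with LIF (17.33 ± 0.24, n = 3). Then came tibialis muscle (17.31 ± 0.04, n = 2), stroma-vascular cells (17.27 ± 0.15, n = 3), Raw 264 (17.20 ± 0.23, n = 3) and C2C12 myoblasts (17.16 ± 0.22, n = 3). The lower end held C2C12 myotubes (17.13 ± 0.11, n = 2), liver (17.07 ± 0.14, n = 2), J774 (17.06 ± 0.07, n = 2), ES cells without LIF (16.98 ± 0.09, n = 3), the preadipocyte lines (16.98 ± 0.25, n = 4 lines) and C3H-10T1/2 (16.95 ± 0.27, n = 3). Of the 13 steps between neighbours in this order, only the first, from 3T3-F442A to tissue adipocytes (0.69, 95% interval 0.33 to 1.04), separated groups whose samples did not overlap. The other 12 neighbouring pairs overlapped, and their intervals included 0. The first and second places were kept with median scaling, without scaling and after background subtraction, but the second only narrowly under the first 2 settings. With median scaling tissue adipocytes had 17.512 and ES cells without LIF 17.509. Without scaling tissue adipocytes had 17.83, and ES cells with LIF and tibialis muscle both had 17.80. Of the 14 groups, 8 kept their rank with median scaling, 4 without scaling and all 14 after background subtraction. ES cells without LIF moved from rank 12 to rank 3 with median scaling and to the last rank without scaling. Tibialis muscle moved from rank 5 to rank 9 with median scaling, and J774 from rank 11 to rank 6 without scaling.

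Differentiation of fat cells in culture was compared first: 3T3-F442A adipocytes against the preadipocyte lines. Lpl was higher in the adipocytes by 1.40 ± 0.16 (SE; 95% interval 1.07 to 1.73; limma adjusted p = 4.13e-06), a ratio of mean normalized intensities of 3.29. The 3 adipocyte samples lay above all 5 preadipocyte samples. In this comparison 9 spots, 0.156% of all, were called at an adjusted p under 0.05, all of them higher, and Lpl had the smallest p of all spots, while 7 spots had a larger difference. Against the single 3T3-F442A preadipocyte sample, the line the adipocytes came from, the difference was 1.55 ± 0.24 (adjusted p = 0.00260); with 1 sample in that arm, its spread is taken from the other groups. Rosiglitazone, confluence and time in culture were changed together, so their parts in the rise cannot be told apart. Without scaling, where the arrays' overall brightness stays in the data, the Lpl difference was 1.87 (adjusted p = 0.612).

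Of the pathway lists, 1 gene of 21 measured besides Lpl rose in that comparison and none fell. This was Plin5, the perilipin that covers lipid droplets in tissues that burn fat, which was 17.93, 18.56 and 18.94 in the adipocytes against 17.28 to 17.73 in the lines. The groups did not overlap, and the difference was 1.03 ± 0.17 (adjusted p = 8.13e-04), a call that held in 9 of 13 other settings. By group mean the Plin5 spot was lower in liver (17.22) and tibialis muscle (17.41) than in the preadipocyte lines (17.44). Peritoneal macrophages (17.74) and ES cells with LIF (17.56) lay above them. The spot's profile over the groups thus does not follow the tissues named for this gene, and why was not tested. The median difference of the 21 genes was 0.02, against -0.01 over all spots. Pnpla2, adipose triglyceride lipase, the enzyme that starts the breakdown of stored fat inside the cell, had 0.43 ± 0.11 (adjusted p = 0.0892). Hadh, an enzyme of β-oxidation, had 0.46 ± 0.16 (adjusted p = 0.306), and Cidec, which fuses lipid droplets, had 0.25 ± 0.18. On the negative side were Gpc1, a heparan sulfate proteoglycan of the kind that holds the lipase at the cell surface (-0.38 ± 0.09, adjusted p = 0.0892), and Acsl4, an acyl-CoA synthetase that prefers arachidonate (-0.43 ± 0.12, adjusted p = 0.164). Of the 3 adipocyte markers none passed, and of the 2 matrix markers Col4a1, a basement membrane collagen, rose by 0.90 ± 0.15. Their part in the Lpl difference was not tested.

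**Figure D2:**
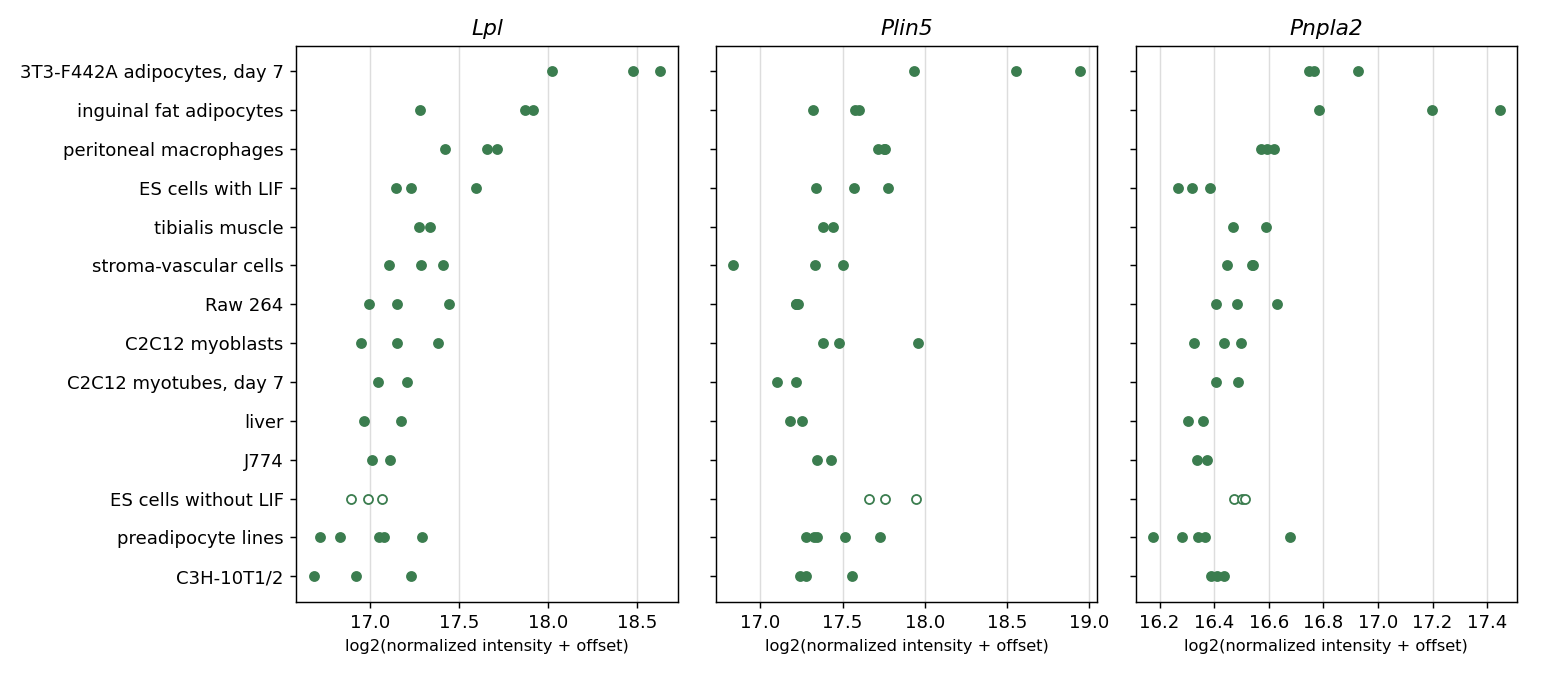
Levels of Lpl, Plin5 and Pnpla2 in each sample, log2(normalized intensity + offset), with groups in the order of Lpl; each panel has its own scale. Plin5 is highest in the 3T3-F442A adipocytes (17.93 to 18.94) and Pnpla2 in the tissue adipocytes (16.79 to 17.45).

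Inside inguinal fat, adipocytes were compared with the stroma-vascular cells that hold their precursors. The Lpl difference was 0.42 ± 0.17 in favour of the adipocytes (95% interval 0.07 to 0.77), but its adjusted p was 0.434 over all 5760 spots, of which 0.625% were called. Adipocyte replicates 2 and 3 (17.87 and 17.92) lay above the 3 stroma-vascular samples (17.11 to 17.41), and replicate 1 (17.28) lay among them. The same adipocyte sample had the lowest mean of the 3 adipocyte markers in its group, 16.87 against 17.30 and 17.20, with stroma-vascular cells at 16.40 to 16.46. Its part in the Lpl values was not tested. Without it the Lpl difference was 0.62 (adjusted p = 0.139). The labels do not say that replicate numbers pair these groups. With the number taken as a block, the value stayed at 0.42 ± 0.14 (limma adjusted p = 0.148).

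Pnpla2 was the 1 of 21 measured pathway genes that rose in the tissue adipocytes, and none fell. Its level was 16.79, 17.45 and 17.20 against 16.54, 16.45 and 16.54 in the stroma-vascular cells, with no overlap. The difference was 0.63 ± 0.11 (adjusted p = 0.00245). That call held in 9 of 12 other settings and was lost without tissue adipocyte replicate 2 (0.48, adjusted p = 0.0759). Cidec had 0.59 ± 0.19 (adjusted p = 0.204) and Bscl2, the seipin gene needed for lipid droplet formation, had 0.35 ± 0.16. Plin5 had 0.28 ± 0.18 (adjusted p = 0.720), and Acsl4 had -0.48 ± 0.13 (adjusted p = 0.0845). The median over the 21 genes was 0.07, against 0.02 over all spots. With the replicate number as a block, a fit in which 4.01% of all spots were called, 3 of the 21 were called: Pnpla2 (0.63 ± 0.13, adjusted p = 0.0311), Cidec (0.59 ± 0.09, adjusted p = 0.00712) and Acsl4 (-0.48 ± 0.08, adjusted p = 0.0145). Of the 5 macrophage markers none differed, with means of 16.51 to 16.58 in the adipocytes and 16.56 to 16.62 in the stroma-vascular cells.

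Fresh and cultured fat cells differed in Lpl, with the cultured ones higher. The tissue adipocytes differed from the 3T3-F442A adipocytes by -0.69 ± 0.17 (95% interval -1.04 to -0.33; adjusted p = 0.0250), and the samples of the groups did not overlap. In this comparison 2.47% of all spots were called. Of 21 pathway genes 1 fell and none rose: Plin5 was lower in the tissue adipocytes by -0.98 ± 0.18 (adjusted p = 0.00156), at 17.32, 17.57 and 17.60. That Plin5 call was lost with median scaling and without scaling. The median of the pathway genes was 0.02, against 0.01 over all spots. The adipocyte marker Retn, the secreted protein resistin, went the other way (0.94 ± 0.15), and both matrix markers were lower in tissue adipocytes. The Lpl call held in 6 of 12 other settings (with median scaling the value was -0.33), and it did not hold without 3T3-F442A replicate 1 (-0.64), 3T3-F442A replicate 3 (-0.56) or tissue adipocyte replicate 1 (-0.48).

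**Figure D3:**
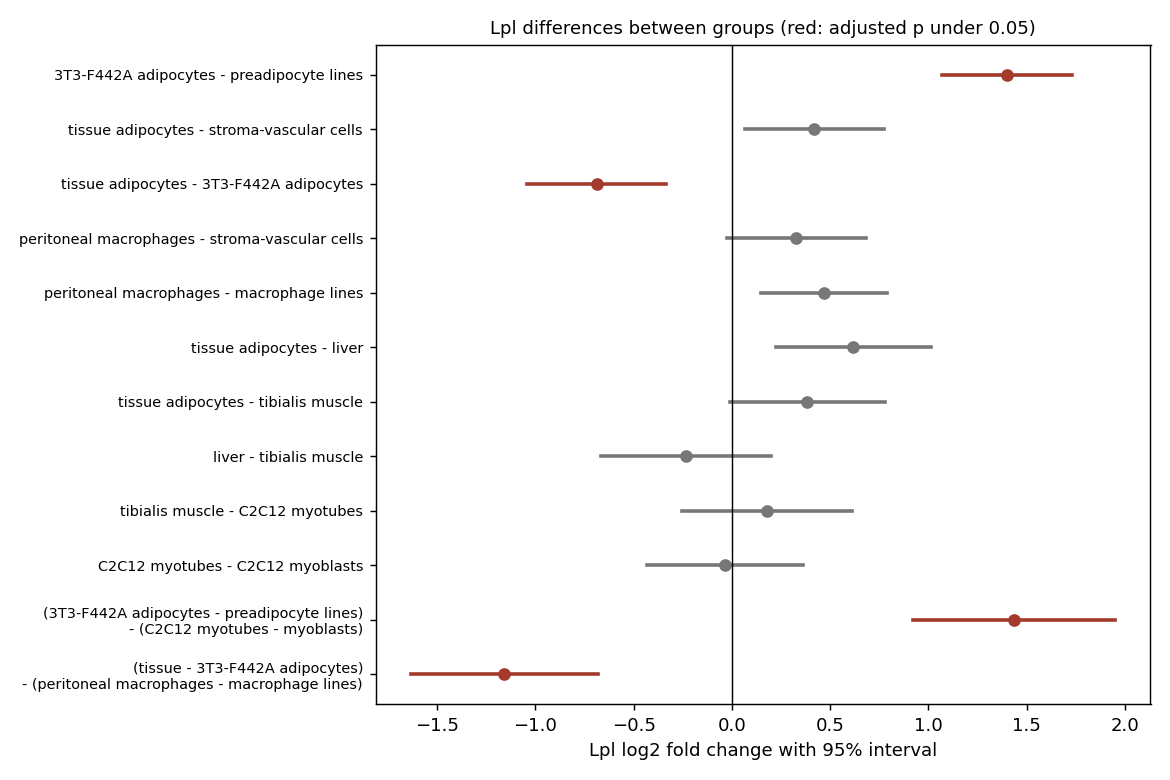
Lpl log2 fold change in 10 main comparisons and 2 differences of differences, each with its 95% interval from the limma fit. Red marks an adjusted p under 0.05, and every comparison so marked contains the 3T3-F442A adipocytes. The 10 other pairs of groups are not drawn.

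Macrophages are the other classical source of the lipase. Peritoneal macrophages had a mean Lpl level close to that of tissue adipocytes, with a difference of -0.09 ± 0.17 (95% interval -0.45 to 0.26; adjusted p = 0.978; 0.851% of spots called). Against stroma-vascular cells their Lpl was 0.33 ± 0.17 (95% interval -0.03 to 0.68; adjusted p = 0.933; 0.451% of spots called), although all 3 macrophage samples lay above the 3 stroma-vascular samples. Against the preadipocyte lines the difference was 0.62 ± 0.16 (95% interval 0.29 to 0.95; adjusted p = 0.0655; 0.712% of spots called), again without overlap. It passed without the Hgfu sample (0.73, adjusted p = 0.0237), the highest of those lines, and in no other of the 8 fits that left out a sample. Of 13 other settings it passed in 1.

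The primary macrophages and the macrophage lines were also set against each other. Peritoneal macrophages exceeded Raw 264 and J774 by 0.47 ± 0.16 in Lpl (95% interval 0.15 to 0.79; adjusted p = 0.110), and 1 Raw 264 sample (17.44) lay inside their range. Here 2.9% of all spots were called. Raw 264 and J774 differed by 0.13 ± 0.19 in Lpl (adjusted p = 0.851; 0.104% of spots called), and the 2 lines together differed from the preadipocyte lines by 0.15 ± 0.14 (adjusted p = 0.730; 0.521% of spots called). No pathway gene of 21 was called for macrophages against stroma-vascular cells or against the lines, with medians of 0.02 and 0.06 against 0.00 over all spots in both. Of 5 macrophage markers, 4 rose in macrophages over stroma-vascular cells and 3 over the lines, among them Cybb, the phagocyte NADPH oxidase subunit (1.91 ± 0.28 and 1.47 ± 0.25). Against tissue adipocytes, Pnpla2 was lower in macrophages by -0.55 ± 0.11 (adjusted p = 0.00872).

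Whole organs were compared with the tissue adipocytes. Over liver, the Lpl level of the adipocytes was higher by 0.62 ± 0.19 (95% interval 0.22 to 1.01; adjusted p = 0.0673), with no overlap, where 3.77% of spots were called. It passed without tissue adipocyte replicate 1 (0.82, adjusted p = 0.0220) and after removal of a local trend along the table of spots (0.67, adjusted p = 0.0306). Over tibialis muscle the difference was 0.38 ± 0.19 (95% interval -0.01 to 0.78; adjusted p = 0.999; 0.382% of spots called), and adipocyte replicate 1 lay among the muscle samples. Between liver and tibialis muscle Lpl differed by -0.24 ± 0.21 (95% interval -0.67 to 0.20; adjusted p = 0.654; 1.88% of spots called); the 2 liver samples lay below the 2 muscle samples. Without scaling that value was -1.89 (adjusted p = 0.00727), but all spots then shifted by a median of -1.53.

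In liver 2 of 6 measured lipase partners and 1 of 4 uptake genes were higher than in tissue adipocytes. Over all pathway lists, 3 genes of 21 were lower in tissue adipocytes than in liver and 1 was higher; the same 3 were higher in liver than in tibialis muscle. The median difference of the 21 genes was 0.0036 over liver, 0.031 for adipocytes over tibialis muscle and 0.014 for liver over tibialis muscle, against 0.0055, 0.0052 and -0.0052 over all spots. Apoc1, the lipoprotein protein that inhibits the lipase, was 19.54 and 18.09 in liver and 16.16 to 16.87 in every other sample. It was lower in adipocytes by -2.17 ± 0.21 (adjusted p = 2.76e-08). Apoa5, a liver apolipoprotein that promotes lipase action, was 17.15 and 17.09 in liver and at most 16.98 elsewhere, with a difference of -1.07 ± 0.18 (adjusted p = 4.24e-04). Slc27a2, a fatty acid transport and activation protein, was 17.59 and 17.45 in liver and at most 16.56 elsewhere, with -1.30 ± 0.12 (adjusted p = 1.46e-08). The calls of all 3 against adipocytes were lost without scaling. Those of Apoc1 and Apoa5 were also lost with the compared groups alone. Each of these genes was thus highest in liver, where the Lpl level had rank 10 among the 14 groups (12 with median scaling and 13 without scaling). Over tibialis muscle the liver values were 2.26 ± 0.23 for Apoc1, 1.11 ± 0.19 for Apoa5 and 1.16 ± 0.13 for Slc27a2. None of these 3 passed with the 4 compared samples alone (adjusted p = 0.127 to 0.331), with a replicate block (adjusted p = 0.0998 to 0.102) or without scaling, and Apoa5 did not with median scaling (0.81, adjusted p = 0.115) nor Slc27a2 after background subtraction (adjusted p = 0.0521). Pnpla2 was higher in tissue adipocytes than in liver by 0.81 ± 0.13 (adjusted p = 2.17e-04) and than in tibialis muscle by 0.62 ± 0.13 (adjusted p = 0.0120). The call over tibialis muscle held in only 1 of the 5 fits that left out a sample. The Pnpla2 call over liver was lost with the compared groups alone and with a replicate block.

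Skeletal muscle, where the lipase feeds fatty acids to working fibres, showed no Lpl difference past the test. Myotubes against proliferating myoblasts gave -0.03 ± 0.19 (95% interval -0.43 to 0.36; adjusted p = 0.981; 0.226% of spots called). In the same comparison 2 of 8 muscle markers rose: Myl1, a fast myosin light chain (2.10 ± 0.21), and Tnnc1, the slow troponin C (1.92 ± 0.14). Tibialis muscle against myotubes gave 0.18 ± 0.21 (95% interval -0.25 to 0.61; adjusted p = 0.927; 0.92% of spots called), with the muscle samples above the myotubes. None of 21 pathway genes was called in either comparison, with medians of 0.0034 and -0.055 against 0.0060 and 0.0015 over all spots. The proliferating C2C12 samples are called a preadipocyte line in 1 label field and were grouped by title.

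The Lpl difference between differentiated and undifferentiated cells was not the same in fat and muscle cultures. The difference of 3T3-F442A adipocytes from the preadipocyte lines exceeded that of C2C12 myotubes from myoblasts by 1.44 ± 0.25 (95% interval 0.92 to 1.95, limma adjusted p = 0.00228). In this test 0.26% of spots were called. The fat arm took its baseline from 4 lines, with 1 sample of 3T3-F442A itself. Its adipocytes had rosiglitazone, whereas the myotubes were kept in HS medium, so the arms are not matched. Plin5 had the same sign and call, with 1.48 ± 0.26 (adjusted p = 0.00228), and was the 1 called pathway gene of 21, whose median was 0.014 against -0.011 over all spots. That Plin5 call held in 9 of 13 other settings. Its mean in C2C12 was 17.16 in myotubes and 17.61 in myoblasts, whereas Lpl differed there by -0.03. Between the end points, 3T3-F442A adipocytes exceeded myotubes by 1.25 ± 0.19 in Lpl (95% interval 0.86 to 1.65; adjusted p = 1.91e-04; 0.625% of spots called) and by 1.32 ± 0.20 in Plin5 (adjusted p = 1.39e-04). These comparisons share the 3T3-F442A samples. The call for Lpl over myotubes held in 8 of 12 other settings; it was lost with median scaling (1.12, adjusted p = 0.207), without scaling (1.49, adjusted p = 0.989), with the compared groups alone (adjusted p = 0.0535) and with a replicate block (1.12, adjusted p = 0.208). The call of the Lpl difference between the fat and muscle arms did not hold with median scaling (1.38), without scaling (2.06) or after background subtraction (2.22).

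The difference between primary cells and lines was not the same in fat cells and macrophages. Tissue minus cultured adipocytes was -0.69 for Lpl and primary minus cultured macrophages was 0.47, a difference of -1.16 ± 0.23 (95% interval -1.63 to -0.68; adjusted p = 0.00828), where 0.486% of spots were called. Plin5 had -1.42 ± 0.24 in the same test (adjusted p = 0.00127) and was the 1 called pathway gene of 21, whose median was 0.089 against 0.012 over all spots. That Plin5 call held in 8 of 11 other settings. The cultured adipocytes were differentiated with rosiglitazone the macrophage lines were kept subconfluent, and the peritoneal macrophages had themselves been plated for 24 h, so the conditions are not matched. The Lpl call held in 6 of 11 other settings, and it was lost without 3T3-F442A replicate 3 (-1.03, adjusted p = 0.0557) and without tissue adipocyte replicate 1 (-0.95, adjusted p = 0.0625).

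**Figure D4:**
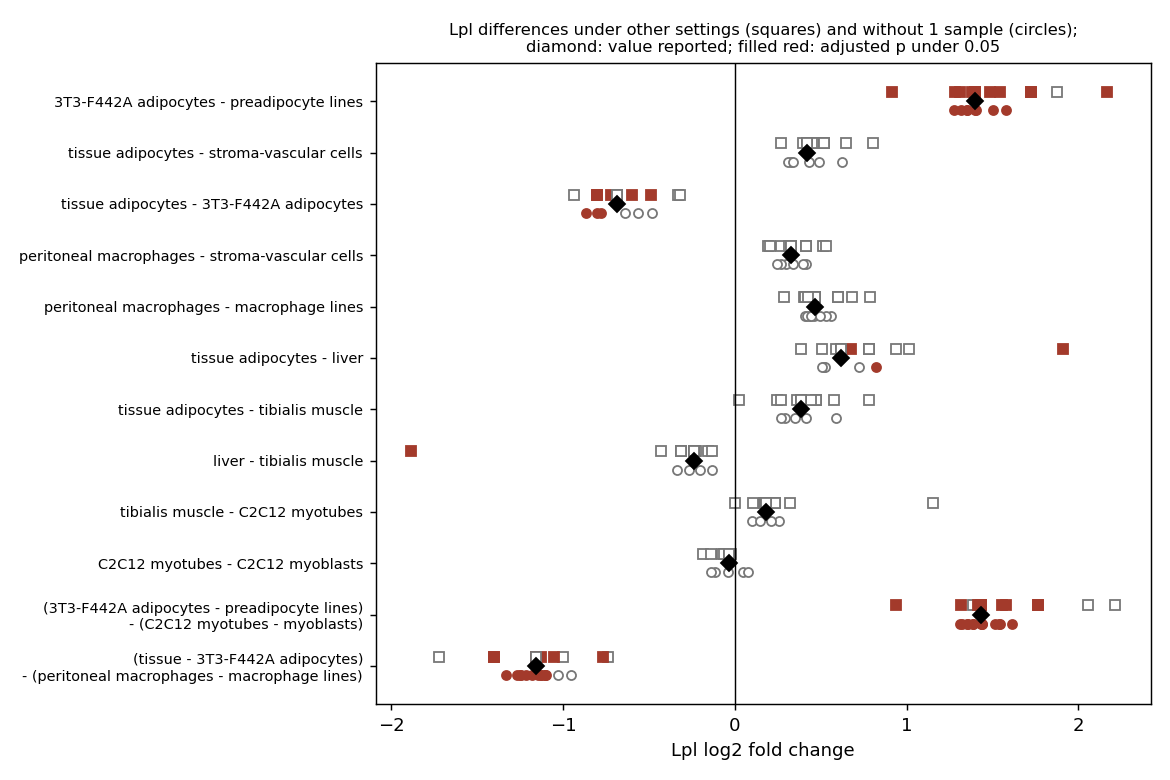
Lpl log2 fold change in the main comparisons under other settings (squares) and without 1 sample (circles), with the reported value as a diamond; filled red marks an adjusted p under 0.05. For 3T3-F442A adipocytes against preadipocyte lines all 8 fits without 1 sample kept the call, between 1.27 and 1.58.

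Among precursor and stem cells no Lpl difference passed the test. Stroma-vascular cells exceeded the preadipocyte lines by 0.29 ± 0.16 (adjusted p = 0.656; 0.191% of spots called). C3H-10T1/2 differed from those lines by -0.03 ± 0.16 (adjusted p = 0.967; 0.0174% of spots called) and C2C12 myoblasts from C3H-10T1/2 by 0.22 ± 0.17 (adjusted p = 0.850; 0.0868% of spots called). ES cells with LIF exceeded C3H-10T1/2 by 0.38 ± 0.17 (95% interval 0.03 to 0.73; adjusted p = 1.00; 0.208% of spots called). ES cells without LIF differed from those with LIF by -0.34 ± 0.17 (adjusted p = 0.627; 0.0174% of spots called), which depended on the scaling: it was 0.41 with median scaling and -2.01 (adjusted p = 0.00113) without scaling, against a median of -1.48 over all spots. No pathway gene was called in any of these comparisons. In all, Lpl passed in 5 of 22 comparisons when adjusted over all spots.

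The pattern of Lpl over the groups was set beside that of 1013 genes whose group means ranged over at least 0.5. The ES cells without LIF were left out, so that likeness is Pearson's r over 13 group means, as a description. Lpl itself ranged over 1.43, and 83 genes ranged as widely. The most alike were Plin5 (0.857), Farp2 (0.847), Zfp36l1 (0.774), Tsc22d3 (0.771), Pnpla2 (0.724) and Hoxd9 (0.709), and the next named gene had 0.706. These points share the arrays and their scaling, and being picked from many genes sets a high r in itself. Without the 3T3-F442A adipocytes, over 12 groups, Pnpla2 kept 0.778, while Plin5 had 0.504 and Farp2 0.528. By Spearman's rho only 2 of the 6 were still among the first 6. Over the 37 single arrays 5 of them were, but with lower r: Plin5 0.679, Farp2 0.601, Zfp36l1 0.667, Tsc22d3 0.487, Pnpla2 0.656 and Hoxd9 0.609.

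The within-group SD of Lpl, set beside those of all spots in the same samples, was highest by percentile in the 2 fat cell groups. Its SD in tissue adipocytes (0.35) was larger than that of 97.3% of spots in the same samples, and in 3T3-F442A adipocytes (0.32) larger than 92.1%. It exceeded 84.5% in ES cells with LIF, 82.5% in C3H-10T1/2 and 80.8% in the preadipocyte lines, and between 32.5% and 76.0% in the other 9 groups. The spots were not matched for brightness, and the offset narrows the spread of dim spots most. In tissue adipocytes replicate 1 (17.28) lay apart from the others (17.87 and 17.92).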

How the data were processed

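Per the labels, Tripure-extracted, DNase-treated RNA was turned into cDNA with 33P, hybridized to Resgen filters and read with Imagene. The deposited values are linear intensity values of 5760 spots in 40 samples; no source used here states the authors' background correction or scaling. No array pair held identical values. Symbols were updated by gene ID from the GRCm38.p6 RefSeq table for 3346 of 3420 spots with 1 symbol.

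After quantile normalization of the arrays an offset of 36370, the 10th percentile, was added before taking log2. All 14 groups entered 1 limma 3.58.1 fit in R 4.3.3 (lmFit, contrasts.fit, eBayes; 25 residual degrees of freedom), with the 2 samples of 3T3-L1 averaged. Tests were two-sided, with Benjamini-Hochberg adjustment across all spots and calls under 0.05, and the fit was tested on simulated data. The number of arrays limits the precision. Lpl was adjusted over its 22 comparisons as well, where 8 passed. Besides the 5 called over all spots, these were peritoneal macrophages minus preadipocyte lines (limma p adjusted over comparisons = 0.00207), peritoneal macrophages minus macrophage lines (0.0142) and tissue adipocytes minus liver (0.00998). Plots used matplotlib 3.10.9 (Python 3.11.15).

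Named genes were Lpl, called or smallest-p members of the pathway lists, markers, and the 6 genes most like Lpl among 1013, leaving out clone names, of which 1 ranked above the sixth. Lists used the brightest spot of a gene and held 6 of 23 lipase partners, 4 of 21 uptake genes, 4 of 22 lipid breakdown genes, 5 of 25 triglyceride storage genes and 2 of 22 transcription factors. Members and lists were chosen with earlier results of these data known. Replicate numbers were taken to pair tissue adipocytes with stroma-vascular cells, whose same-numbered samples deviated together (correlations 0.26, 0.10 and 0.39). Tissue with 3T3-F442A adipocytes gave 0.14, -0.06 and -0.10. Positive values also came from tissue adipocytes with tibialis muscle (0.20 and 0.11) and myotubes with myoblasts (0.11 and 0.060). Tibialis muscle with myotubes gave 0.10, a single value, since with 2 samples in each group both numbers give the same correlation. The correlations thus do not show that same-numbered samples share an animal. Alternatives were other scalings, offsets, background, local trend, filter, variance model, baselines, sets of arrays, the replicate block and leaving out each sample. The likeness over 12 groups was added after seeing the data.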

Additional observations from a re-analysis of the deposited data

Results flagged for a closer look

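The Lpl difference with differentiation was not alike in fat and muscle cultures. The value for 3T3-F442A adipocytes minus the 4 preadipocyte lines exceeded C2C12 myotubes minus myoblasts by 1.44 (limma adjusted p = 0.00228), by a test of the difference itself. The difference between primary cells and lines was not alike either: tissue minus 3T3-F442A adipocytes against peritoneal macrophages minus macrophage lines gave -1.16 (adjusted p = 0.00828). The 3T3-F442A adipocytes enter both. Among the 4 preadipocyte lines no Lpl value stood apart by Dixon's ratio (0.392, below the 95% critical value); groups of fewer than 4 were not tested.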

How the results depend on the processing

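Of 420 alternative Lpl values, most for uncalled comparisons, 380 kept sign and call status, 7 gained a call and 9 changed sign. All 24 lost calls were in the 5 called comparisons. Causes were not tested. With median scaling the calls were lost for Lpl in tissue minus 3T3-F442A adipocytes (-0.33), in 3T3-F442A against C2C12 differentiation (1.38) and in the difference between adipocytes and macrophages in primary minus culture (-0.74), and for 3T3-F442A adipocytes minus myotubes (1.12). Without scaling these were -0.32, 2.06, -0.999 and 1.49, again not called, 3T3-F442A adipocytes minus preadipocyte lines was 1.87, and calls were gained for tissue adipocytes minus liver (1.91), liver minus tibialis muscle (-1.89) and ES cells without minus with LIF (-2.01), where all spots shifted by medians of 0.75, -1.53 and -1.48. After background subtraction the first 3 were -0.93, 2.22 and -1.72. Removing the local trend gained a call for tissue adipocytes minus liver (0.67). The trend and robust variance model, and a fit of the compared groups alone, lost the calls of tissue minus 3T3-F442A adipocytes (-0.69, adjusted p = 0.0785 and 0.0734) and of the primary minus culture difference (-1.16, adjusted p = 0.0689 and 0.0637).

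With the replicate number as a block, Lpl in tissue minus 3T3-F442A adipocytes had an adjusted p of 0.0742 (-0.69), where numbers did not pair the samples. Tissue adipocytes minus stroma-vascular cells stayed at 0.42; 3T3-F442A adipocytes minus myotubes lost its call (1.12, adjusted p = 0.208), and no other Lpl call changed. No block could be fitted with the preadipocyte lines, which share no numbers, nor for the 2 differences of differences.

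Leaving out each sample gave 1.27 to 1.58 for 3T3-F442A adipocytes minus preadipocyte lines (called in 8 of 8), -0.86 to -0.48 for tissue minus 3T3-F442A adipocytes (3 of 6), 0.51 to 0.82 for tissue adipocytes minus liver (1 of 5), -0.14 to 0.077 for myotubes minus myoblasts, 1.31 to 1.61 for the differentiation difference (13 of 13) and -1.33 to -0.95 for the primary minus culture difference (12 of 14). Signs also changed for ES cells without minus with LIF with median scaling (0.41), Raw 264 minus J774 without scaling (-0.51, all spots -0.75), C3H-10T1/2 minus preadipocyte lines (0.23 without scaling, all spots 0.18; 0.11 with the single 3T3-F442A baseline, -0.17 to 0.10 without 1 sample), macrophages minus tissue adipocytes (-0.30 to 0.021 without 1 sample), and, without scaling, Apoa5 (-0.57) and Slc27a2 (-0.71) in liver minus tibialis muscle, both above that shift of all spots (-1.53).

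Counts of called spots moved by over 1.5 times: from 9 to between 0 (no scaling) and 35 (single baseline) for 3T3-F442A adipocytes minus preadipocyte lines, from 36 to between 1 and 231 (replicate block) for tissue adipocytes minus stroma-vascular cells, from 142 to between 0 and 297 for tissue minus 3T3-F442A adipocytes, and from 108 to between 2 and 5632 for liver minus tibialis muscle. Elsewhere lowest and highest counts were 0 and 37 (macrophages minus stroma-vascular cells), 5 and 211 (minus macrophage lines), 1 and 406 (adipocytes minus liver), 6 and 48 (minus muscle), 4 and 184 (muscle minus myotubes), 0 and 19 (myotubes minus myoblasts), 0 and 22 (differentiation) and 3 and 30 (primary minus culture). Lpl has 1 spot, so no other could be tried.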
